A study of Zea mays with 6 samples.

Results

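YABBY genes encode transcription factors with a zinc finger near the start of the protein and a YABBY domain, related to the HMG box, that binds DNA. The family is specific to seed plants and is known for the outgrowth of the flat leaf blade, for the polarity between the upper (adaxial) and lower (abaxial) leaf side and for keeping meristem genes off in leaves. In Arabidopsis, YABBY transcripts of vegetative leaves mark the abaxial side, whereas in situ work in maize has placed transcripts of members such as yab9 and yab14 on the adaxial side of leaf primordia. The drooping leaf genes drl1 and drl2 are co-orthologs of rice DROOPING LEAF and belong to the subfamily of Arabidopsis CRABS CLAW. They shape midrib and leaf architecture in maize.

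The 7 genes described here were chosen by gene ID as YABBY family members, out of 39656 genes counted. They are drl1 (GRMZM2G088309), drl2 (GRMZM2G102218), yab14 (GRMZM2G005353), yab10 (GRMZM2G167824), yab15 (GRMZM2G529859, listed as yabby15 in the gene name table used here), YAB6 (GRMZM2G074124) and GRMZM2G085873, which has no entry in that table. The name table gives the symbol DL1 for drl1 and no symbol for drl2, so both drl names follow the list of IDs. Transcripts were measured by RNA-seq of laser-microdissected cells in 6 libraries of wild-type B73, the reference inbred of maize, all from shoot apices of 14-d-old seedlings. The center zone of the shoot apex (CZ), the adaxial sides (Ad) and the abaxial sides (Ab) of leaf primordia 2 and 3 gave 2 libraries each. Each library pools cells captured from sections of several apices, and fewer cells that express a gene and less RNA per cell cannot be told apart. Levels are read counts scaled to the uniquely aligned reads of the library (RPM), without correction for transcript length, and are compared between libraries and not between genes.

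Count totals per library ran from 14718269 to 25898155. A gene without a read can have had up to 0.112 RPM in the largest library and 0.196 RPM in the smallest (3 counts), which covers counting error only. As a check of the captures, the summed level of the 8 class I KNOX genes with a symbol, among them the meristem gene knotted1 (kn1), was 1391.5 and 1177.6 RPM in the center zone and 10.6 to 18.6 RPM in the leaf libraries. Summed KANADI transcripts (kan1, kan3 and mwp1, abaxial determinants) had 83.7 and 80.0 RPM on the abaxial side and 3.6 and 1.9 RPM on the adaxial side. The LOB-domain gene IG1, an adaxial factor, had adaxial levels of 201.0 and 181.8 RPM and abaxial levels of 9.7 and 10.9 RPM. Of the HD-ZIP III genes, which promote adaxial fate, rld2 had adaxial levels of 276.5 and 177.4 RPM and abaxial levels of 102.6 and 88.6 RPM, rld1 differed less (475.1 and 470.6 against 384.0 and 374.9 RPM) and phb1 stayed at or under 0.4 RPM in all 6 libraries. The epidermal genes ocl1, ocl3, ocl4 and ocl5 summed to 314.4 and 291.8 RPM in the center zone and 1245.1 to 1634.0 RPM in the leaf libraries. The captures thus also differed in transcripts of these genes. Whether the share of epidermal cells differed was not tested.

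The 7 genes lie on 4 chromosomes in the coordinates of the deposited table (B73 RefGen_V3). Chromosome 1 holds 3 of them, drl1 at chr1:26575978-26581139 and yab10 at chr1:225032510-225037728 on the plus strand and GRMZM2G085873 at chr1:260364371-260367349 on the minus strand. Chromosome 5 holds YAB6 at chr5:16129518-16164823 on the minus strand and yab15 at chr5:189198008-189200889 on the plus strand. The minus strand of chromosome 9 carries drl2 at chr9:146693340-146698631, and that of chromosome 10 carries yab14 at chr10:133109200-133111834. None overlaps another gene of the table, and the nearest gene lies 2971 bp away (beside yab10) to 103422 bp away (beside yab14). The models of 6 genes span 2635 to 5292 bp, while that of YAB6 spans 35306 bp.

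Of the 7 genes, 6 reached a mean of 2 RPM in at least one domain. On the adaxial side 6 genes reached it, on the abaxial side 5, and in the center zone 4. GRMZM2G085873 had no read in any of the 6 libraries. Because drl1 and yab10 passed this filter only through the leaf libraries, they had to be lower in the center zone, and their number is not evidence of a pattern.

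Transcripts of the paralog pair drl1 and drl2 were scarce in the center zone and present on both sides of the leaf primordia. The drl2 gene had 2.6 and 2.4 RPM in the center zone, adaxial levels of 128.3 and 152.6 RPM and abaxial levels of 202.9 and 170.9 RPM. Each leaf library thus lay far above both center zone libraries, whose mean was 1.53% of the leaf mean. The log2 fold change of the center zone was -6.00 (edgeR, standard error SE 0.26, adjusted p = 2.02e-04) against the adaxial side and -6.35 (SE 0.26, adjusted p = 1.47e-04) against the abaxial side. The drl1 gene followed the same course at few reads, with 0.1 RPM in each center zone library (2 counts each), adaxial levels of 2.6 and 2.5 RPM and abaxial levels of 3.1 and 2.9 RPM. Its pooled level on the adaxial side was 29.7 times that in the center zone (95% exact interval 11.3 to 111, from 130 and 4 counts), and that on the abaxial side 35.5 times (13.4 to 133, from 95 and 4 counts). These intervals cover counting error only. The call for drl1 passed against the adaxial side (log2 fold change -4.96, adjusted p = 0.00319 from edgeR) and against the abaxial side (-5.16, adjusted p = 0.00295). The first was lost when any single leaf library was left out (adjusted p = 0.0103 without Ab replicate 2 to 0.0190 without Ad replicate 2, and 0.0151 and 0.0113 without Ad replicate 1 and Ab replicate 1), and the second without Ab replicate 1 (0.0252) or Ab replicate 2 (0.0194).

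**Figure D1:**
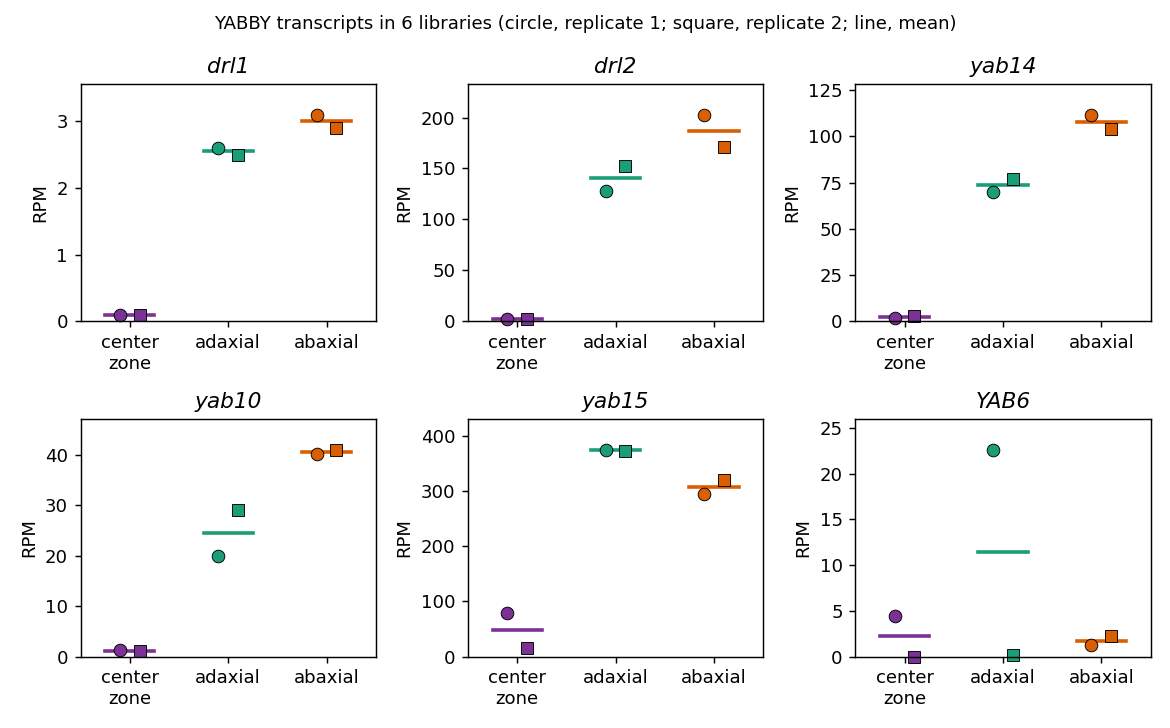
Levels of the 6 YABBY genes with reads, in RPM on a linear axis that starts at 0 and differs between panels, for the center zone, adaxial and abaxial libraries. Circles are replicate 1, squares replicate 2 and lines the means of 2 libraries. The genes drl1, drl2, yab14 and yab10 lie near 0 in the center zone, yab15 differs between its center zone libraries (78.8 and 16.3 RPM), and YAB6 is high in a single adaxial library (22.6 RPM).

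The leaf-blade YABBY genes yab14 and yab10 had the same order of domains as the drl pair. The yab14 gene had 1.9 and 2.6 RPM in the center zone, adaxial levels of 70.1 and 76.9 RPM and abaxial levels of 111.8 and 104.1 RPM. Its center zone libraries did not approach those of the leaf, and its mean there was 2.48% of the leaf mean. The log2 fold change was -5.19 (edgeR, SE 0.26, adjusted p = 2.05e-04) against adaxial and -5.69 (SE 0.26, adjusted p = 1.47e-04) against abaxial. The yab10 gene had 1.3 and 1.1 RPM in the center zone, adaxial levels of 19.9 and 29.1 RPM and abaxial levels of 40.2 and 41.0 RPM. Its replicates differed most on the adaxial side, by 1.47-fold, and its center zone mean was 3.69% of the leaf mean. Its log2 fold changes were -4.53 (SE 0.32, adjusted p = 3.99e-04) and -5.20 (SE 0.32, adjusted p = 2.47e-04). The calls for drl2, yab14 and yab10 held without each single library, with adjusted p values up to 0.00321.

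Unlike drl1, drl2, yab14 and yab10, the gene yab15 had a center zone level that differed widely between its 2 libraries. It had 78.8 RPM in CZ replicate 1 and 16.3 RPM in CZ replicate 2 (1899 and 374 counts), adaxial levels of 374.3 and 373.2 RPM and abaxial levels of 293.9 and 319.8 RPM. All leaf libraries lay above both center zone libraries, but the latter differed from each other by 4.83-fold, with a mean of 47.55 ± 44.2 RPM (SD, n = 2), while the leaf pairs differed by at most 1.09-fold. Relative to the leaf mean, CZ replicate 1 held 23.2% and CZ replicate 2 held 4.79%. For yab10 these shares were 3.99% and 3.38%, so yab15 lay far above it in CZ replicate 1 alone. A difference as large as that of yab15 between the center zone libraries was seen for 2.25% of the 17993 genes tested, on log2(RPM + 1). The log2 changes of -3.15 (edgeR, SE 0.74, adjusted p = 0.0331) against adaxial and -2.82 (SE 0.73, adjusted p = 0.0448) against abaxial did not pass the threshold of 0.01. Without CZ replicate 1 they were -4.65 (adjusted p = 6.17e-05) and -4.31 (5.67e-05), and without CZ replicate 2 they were -2.44 (6.08e-04) and -2.12 (9.19e-04), where the single center zone library left is assumed to vary like the others. DESeq2 called both as well (2.10e-04 and 0.00116), but it called 28.5% and 26.9% of all genes, against 12% and 10.6% in the main edgeR fit. Neither passed without the RPM filter (adjusted p = 0.0802 and 0.104 from edgeR) or with only the groups compared (0.0858 and 0.0825). Limma-trend, library size alone and the replicate block did not call them either. Beside this difference, the summed level of the epidermal genes was 314.4 and 291.8 RPM in CZ replicates 1 and 2, that of KANADI genes 5.5 and 1.4 RPM and that of class I KNOX genes 1391.5 and 1177.6 RPM. Their part in the level of yab15 was not tested. For drl2, yab14 and yab10 the 2 center zone libraries differed by at most 1.35-fold.

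**Figure D2:**
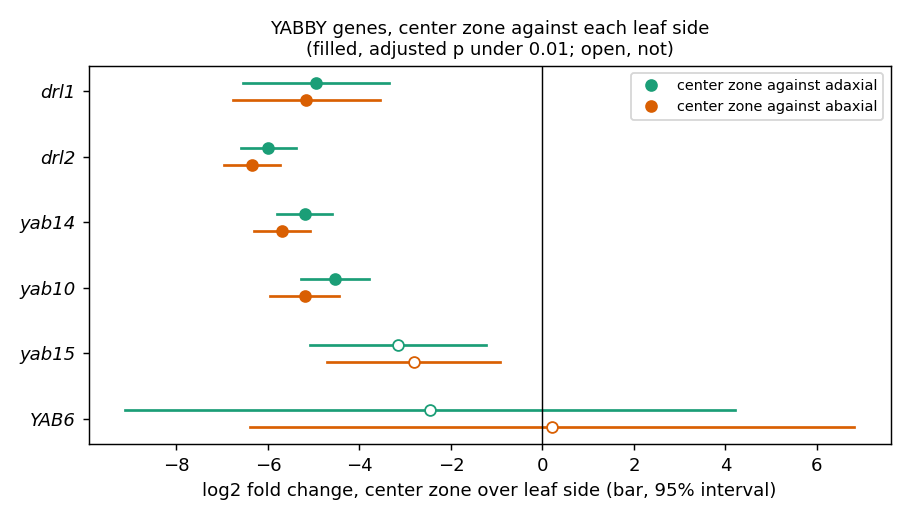
Log2 fold change of the center zone over each leaf side for 6 YABBY genes, with 95% intervals from the fit of 6 libraries. Filled points passed an adjusted p of 0.01. The genes drl1, drl2, yab14 and yab10 passed against both sides (-4.53 to -6.35), while the open points of yab15 lie near -3 and those of YAB6 have intervals across 0.

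Among the 6 chosen genes tested, 4 were called lower in the center zone against the adaxial side and 4 against the abaxial side. Against the mean of both sides it was also 4. In each case these were drl1, drl2, yab14 and yab10, and none was called higher. The 4 further genes with a YABBY symbol are described below and are not in these counts. Over all 17993 genes tested, 5.61% were called lower and 6.38% higher against adaxial, 4.42% lower and 6.22% higher against abaxial, and 7.83% lower and 10.9% higher against the mean of both sides. With yab15, 5 of the 6 genes had both center zone libraries below every library of the adaxial side, as did 26.7% of all genes tested. The same 5 lay below every abaxial library (31% of all genes) and below all 4 leaf libraries (22.9%). These counts include drl1 and yab10, which were tested only because they reached the filter in the leaf, so they are not read against the shares of all genes. The other 4 genes reached a mean of 2 RPM in the center zone, YAB6 through CZ replicate 1 alone (4.4 and 0 RPM). Where both center zone libraries had to reach 2 RPM, 2 of the 7 genes did. Of the 4, 2 (drl2 and yab14) were called lower in each of these comparisons, and 3 (with yab15) had libraries that did not overlap. The share among all genes at 2 RPM in the center zone was not computed, so these counts have no background. The comparisons share the center zone libraries, so they are not independent of each other.

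YAB6 had no level that its replicates shared in the center zone or on the adaxial side. Its libraries held 4.4 and 0.0 RPM in the center zone (107 counts and 1 count), 22.6 and 0.2 RPM on the adaxial side (555 and 6 counts) and 1.3 and 2.2 RPM on the abaxial side (20 and 36 counts). Reads were thus frequent in replicate 1 of the center zone and of the adaxial side and rare in replicate 2 of both, and the groups overlapped in every comparison. The adaxial replicates differed by 101-fold in read share, and a difference as large on log2(RPM + 1) was seen for 0.133% of the genes tested. The fold change between the sides was 2.67 on the log2 scale with a 95% interval of -4.14 to 9.48 (adjusted p = 1 from edgeR). Without Ad replicate 1 it was -2.84, and so the direction rests on that library. Between Ad replicates 1 and 2, the summed level of class I KNOX genes was 18.6 and 14.5 RPM, of KANADI genes 3.6 and 1.9 RPM and of epidermal genes 1346.6 and 1245.1 RPM. Their part in the level of YAB6 was not tested.

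Between the leaf sides, drl1, drl2, yab14 and yab10 had higher levels in both abaxial libraries than in both adaxial ones, and yab15 had the reverse, but no YABBY gene of the 6 passed the test. The adaxial mean was 85.0% of the abaxial mean for drl1, 75.1% for drl2, 68.1% for yab14 and 60.3% for yab10, and 122% for yab15. For yab14 this order is the reverse of the adaxial in situ placement named at the start, but it did not pass the test. The stage and method of that in situ work were not compared here. The log2 fold changes, adaxial over abaxial, were -0.66 for yab10 (95% interval -1.27 to -0.05, adjusted p = 0.863 from edgeR) and -0.50 for yab14 (-0.99 to -0.01, adjusted p = 0.929). For drl2 it was -0.35 (-0.83 to 0.12, adjusted p = 1), for drl1 -0.21 (-1.44 to 1.03, adjusted p = 1) and for yab15 0.34 (-1.43 to 2.10, adjusted p = 1). By edgeR, 0 of 6 genes were called, and 2 (yab14 and yab10) had an unadjusted p under 0.05, as did 943 of all 17993 genes tested (5.24%). DESeq2 and limma-trend also called 0 of the 6, where they called 1.08% and 0.0834% of all genes. Over all genes tested, 0.05% were called higher and 0.0222% lower on the adaxial side. Libraries that do not overlap were common there, with 19.4% of all genes tested higher in both abaxial libraries and 16% higher in both adaxial ones, so the 4 genes and the 1 gene that were separated in this way are read against that background. The boundary gene CUC2 had 11.5 and 20.1 RPM in the adaxial and 1.4 and 0.8 RPM in the abaxial libraries (edgeR, log2 fold change 3.88, 95% interval 2.86 to 4.91, adjusted p = 0.0328, which did not pass 0.01). Its part in the YABBY levels was not tested.

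A fit of the 4 leaf libraries alone leaves out the spread of the center zone. In it, the interval of yab15 narrowed to -0.06 to 0.73 around an estimate of 0.33 in log2 (edgeR, adjusted p = 0.738), that of yab14 was -0.92 to -0.09 and that of yab10 -1.23 to -0.11 (adjusted p = 0.420 and 0.436). The interval of drl2 was -0.81 to 0.09 and that of drl1 -1.20 to 0.77, while that of YAB6 ran from -6.11 to 11.45. In this fit, 75 genes (0.417% of those tested) were called between the sides, and none of them was a member of the 6.

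Ratios of counts within a library do not depend on how libraries are scaled. The log2 ratio of yab15 to yab14 was 2.42 and 2.28 in the adaxial libraries and 1.39 and 1.62 in the abaxial ones, a mean ratio 1.79-fold higher on the adaxial side. Both adaxial values lay above both abaxial ones. The same held for the ratio to yab10 (4.24 and 3.68 against 2.87 and 2.96, a shift of 2.06-fold), to drl2 (1.55 and 1.29 against 0.53 and 0.90, 1.62-fold) and to drl1 (7.19 and 7.23 against 6.55 and 6.77, 1.46-fold). These 4 ratios share yab15 and are not independent. As yab15 was higher in both adaxial libraries and drl1, drl2, yab14 and yab10 in both abaxial ones, each ratio had to separate the sides. The ratios thus restate those levels and are no further evidence of a side preference. The ratio of yab15 to yab9, another YABBY gene with an adaxial level above its abaxial one, moved the other way, with 2.65 and 2.19 in the adaxial and 3.87 and 4.03 in the abaxial libraries. With 2 libraries a side, the exact permutation test (two-sided) gave p = 0.333 for each of these 5 ratios, also after Benjamini-Hochberg adjustment, which is the smallest p it allows. In the center zone the ratio of yab15 to drl2 was 4.94 and 2.79, above every leaf library, and that to yab10 was 5.94 and 3.90, of which the second lay within the range of the leaf libraries.

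**Figure D3:**
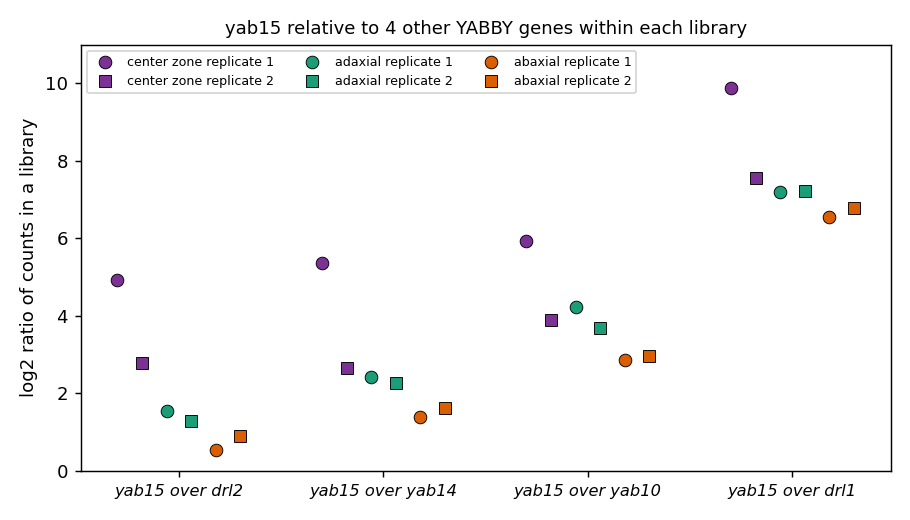
Log2 ratio of yab15 counts to those of 4 other YABBY genes within each of the 6 libraries, with circles for replicate 1 and squares for replicate 2. In each set the adaxial points lie above the abaxial ones, by 1.46- to 2.06-fold on average, and CZ replicate 1 is the highest. The order of the 2 leaf sides follows from the levels of the genes and is not a separate result.

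The profiles of drl1, drl2, yab14 and yab10 over the 6 libraries were close to each other, with Pearson correlations of 0.992 to 0.999 on log2(RPM + 1). Those of yab15 with these genes were 0.890 to 0.914, and those of YAB6 with the other 5 were 0.117 to 0.402. The 6 points come from 3 domains, and genes low in the center zone share this shape. Of the 1809 other tested genes with a symbol, 101 to 131 had a correlation over 0.95 with drl1, drl2, yab14 or yab10. By this measure, the gene with a symbol most like drl2 was drl1 (0.999), followed by the HD-ZIP IV gene OCL6 (GRMZM2G001289), with 42.7 and 38.2 RPM in the center zone, adaxial levels of 278.1 and 293.1 RPM and abaxial levels of 387.3 and 359.8 RPM. The same 2 ranks held drl2 and OCL6 for drl1, and drl1 and drl2 for yab14. The genes most like yab10 were OCL8 (GRMZM2G122897, 0.999), also an HD-ZIP IV gene, and LIM6 (0.998). For yab15 they were ALF7 (0.999) and TPS5 (0.997), and TPS5 had 70.5 and 28.1 RPM in the center zone. The genes most like YAB6 were the glutathione transferase genes gst13 (0.972) and gst11 (0.935). The gst11 gene had 12.2 and 0.1 RPM in the center zone, adaxial levels of 23.8 and 0.3 RPM and abaxial levels of 0.3 and 1.5 RPM, so it too was high in replicate 1 of the center zone and of the adaxial side.

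A further 4 genes of the table carry a YABBY symbol, and the libraries of 3 of them, YAB11, YAB5 and yab9, did not overlap between the sides (2 higher and 1 lower in the abaxial libraries, beside 19.4% and 16% of all genes tested). YAB11 (GRMZM2G141955) had adaxial levels of 4.1 and 2.1 RPM and abaxial levels of 48.1 and 36.9 RPM, which is a change of -3.75 in log2 (edgeR, SE 0.35, adjusted p = 0.0116). YAB5 (GRMZM2G116646) had adaxial levels of 7.5 and 1.3 RPM and abaxial levels of 49.7 and 50.5 RPM (-3.51, adjusted p = 0.360). The order was the reverse for yab9, which had adaxial levels of 59.6 and 82.0 RPM and abaxial levels of 20.2 and 19.5 RPM (1.90, adjusted p = 0.141), and YAB3 had 10.5 and 2.9 RPM and 2.2 and 5.1 RPM (0.91, adjusted p = 1). None of the 4 passed 0.01 in the fit of all 6 libraries. In the fit of the 4 leaf libraries, YAB11 (adjusted p = 0.00194) and yab9 (0.00865) passed, and YAB5 (0.432) and YAB3 (0.848) did not. In the center zone all 4 stayed at or under 1.9 RPM, and 2 of them, yab9 and YAB11, were called lower there against each leaf side. Over all genes tested, 5.61% were called lower against adaxial and 4.42% against abaxial. All 4 passed the filter only through the leaf libraries and so had to be lower in the center zone. Their count is therefore not read against these shares and is not evidence of a pattern.

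**Figure D4:**
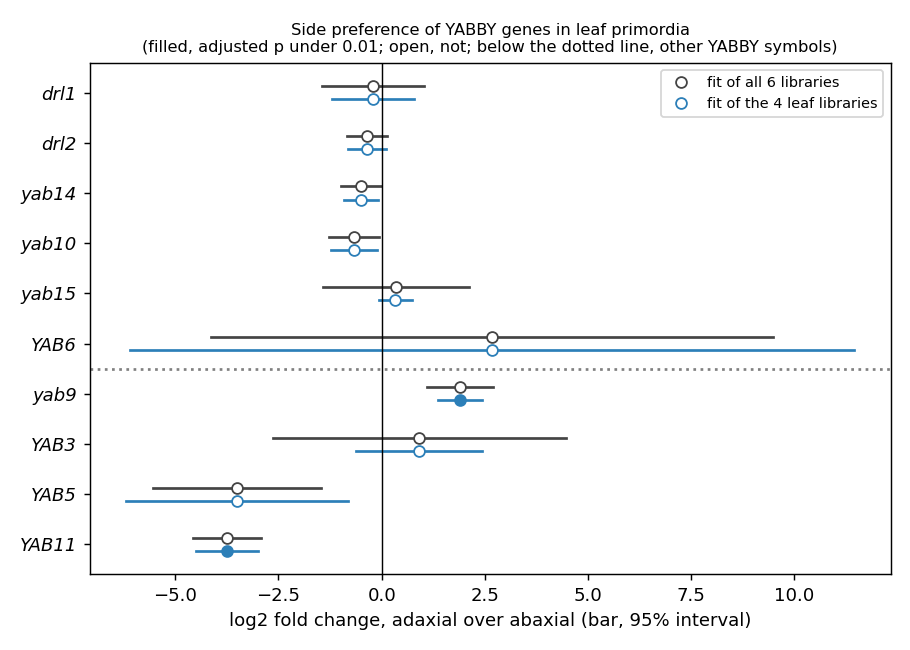
Log2 fold change of adaxial over abaxial libraries with 95% intervals, for the 6 YABBY genes above the dotted line and the 4 further genes with a YABBY symbol below it, from the fit of all 6 libraries and from that of the 4 leaf libraries. Filled points passed an adjusted p of 0.01. The estimates of drl1, drl2, yab14, yab10 and yab15 lie between -0.67 and 0.34, the intervals of YAB6 are the widest, and yab9 (1.90) and YAB11 (-3.75) point to opposite sides.

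Other genes of leaf polarity, taken by symbol, give the setting of these levels. In the list of LOB-domain, MYB and ta-siRNA factors, 2 of 4 tested genes were called higher on the adaxial side, IG1 (log2 fold change 4.27, adjusted p = 0.00625 from edgeR) and its relative ial1 (3.14, adjusted p = 0.00969), and 0 of 4 on the abaxial side. Among KANADI genes 0 of 3 passed, with log2 fold changes of -4.64 for kan1, -4.80 for mwp1 and -5.23 for kan3 (adjusted p = 0.126, 0.298 and 0.125), and among the HD-ZIP III genes 0 of 2 passed. Of the KANADI genes, kan1 and kan3 passed the filter only through the abaxial libraries and had to be lower on the adaxial side. YABBY factors help to keep class I KNOX genes off in Arabidopsis leaves. Of this list, 6 of 7 tested genes were called higher in the center zone against adaxial and 7 of 7 against abaxial. Between the leaf sides 0 of 7 were called. Over all genes tested, 6.38% were called higher in the center zone against adaxial and 6.22% against abaxial. Between the sides, 0.05% were called higher and 0.0222% lower on the adaxial side. The genes lg4, knox8, knox4 and lg4b passed the filter only through the center zone and had to be higher there. The KNOX counts are therefore not read against the shares of all genes. The center zone held KNOX transcripts at high levels and drl1, drl2, yab14 and yab10 at low levels.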

How the data were processed

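According to the study's methods, RNA of laser-microdissected cells was amplified linearly, sequenced as single-end reads, trimmed at a Phred score under 15, and aligned with GSNAP (version not given in the sources used here) to B73 RefGen_V3. Counting per gene used uniquely placed reads that had no more than 2 mismatches in 36 bp. The authors deposited these raw counts per library, and RPM scaled to uniquely aligned reads, rounded and without length correction, since amplified RNA covers the 3′ ends of transcripts. The kit of the labels is not described as keeping the strand.

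Genes whose mean reached 2 RPM in a domain (17993) were tested with edgeR 4.0.16 (TMM, robust quasi-likelihood test, run under R 4.3.3). The 3 groups entered a joint fit, with Benjamini-Hochberg adjustment over all genes tested and a threshold of 0.01. Each standard error (SE) was taken from the estimate and its F statistic. The common dispersion was 0.0933. Alternatives were DESeq2 1.42.0, limma-trend (limma 3.58.1, prior count 2), library size alone, no filter, 10 RPM, a threshold of 0.05, a replicate block, only the groups compared and each library left out. Exact permutation tests were used for single ratios. The study's methods call the 2 libraries of a domain biological replicates.

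The 7 genes, the lists and the alternatives were chosen with earlier results of these data known. Named are all 7 genes, for each expressed member the 2 genes with a symbol and the highest profile correlation, and members of lists matched by symbol to a RefSeq gene table of Zm-B73-REFERENCE-NAM-5.0, of whose coordinates none are used (18775 of 39656 IDs matched, 2650 with a symbol). The ocl markers of epidermis, CUC2 (boundary) and a vascular list served as markers, and no vascular symbol matched. CUC2 had 353.9 and 277.1 RPM in the center zone, 11.5 and 20.1 RPM in the adaxial and 1.4 and 0.8 RPM in the abaxial libraries. Sequences of the genes are not used here.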

Additional observations from a re-analysis of the deposited data

How the results depend on the processing

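Of 326 alternative values for fold changes of single YABBY genes, 299 kept their direction and their side of the threshold, 12 gained a call, 7 lost it and 8 reversed. All gains were for yab15 and all losses for drl1, in comparisons with the center zone. For drl1, one loss came from fitting only the groups compared (adjusted p = 0.0122 from edgeR). The reversals were all for YAB6, which was not called under any setting. Its log2 fold change between center zone and abaxial was 0.21, and -1.29 with limma-trend and -2.49 with the replicate block. Between the sides it was -0.24 with the block. Leaving out each library gave -7.90 to 3.05 for center zone against adaxial, -5.23 to 1.17 against abaxial, -6.57 to 1.63 against both sides and -2.84 to 3.66 between the sides.

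Leaving out a library gave 3 to 5 called YABBY genes for center zone against adaxial, 3 to 5 against abaxial, 4 to 5 against both sides and 0 between the sides. The share of all genes called ran from 1.18% (without Ad replicate 2) to 20.9% (without CZ replicate 1) against adaxial, from 1.21% (without Ab replicate 1) to 19.2% (without CZ replicate 1) against abaxial, from 6.31% to 24.9% against both sides and from 0% to 0.367% between the sides. With the replicate block the counts stayed 4, 4, 4 and 0, while over all genes tested the calls for center zone against adaxial went from 2157 to 991 (5125 with DESeq2). The labels do not show the numbers to be a pairing. Deviations of same-numbered libraries correlated by 0.0159 (CZ and Ad), -0.0595 (CZ and Ab) and 0.187 (Ad and Ab). Library size alone shifted the median log2 fold change of all genes by over 0.1, to 0.20 for center zone against adaxial and 0.14 against abaxial, and changed no call of a YABBY gene. The center zone held 4 of the 7 genes at a mean of 2 RPM, 1 at 5 RPM and 2 where both libraries had to reach 2 RPM. With Spearman correlation, 5 of the 12 most similar genes stayed among the 20 most similar ones. Over 6 libraries this correlation takes few distinct values, so genes tie, and ties were ordered by gene ID. The part of ties in this number was not tested. The low counts of drl1 (2 in each center zone library) and the spread of yab15 and YAB6 limit their estimates.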

Other observations

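The WOX3 genes, which promote growth of the leaf margin, had low levels: ns1 had 0.1 and 0.0 RPM in the center zone and 1.0 to 3.1 RPM in the leaf libraries, and wox3A (GRMZM2G122537) had 0.7 and 0.6 RPM and 1.2 to 5.0 RPM. Neither passed between the center zone and either side. The corepressor gene rel2, a relative of Arabidopsis TOPLESS, had similar levels throughout, from 485.4 to 580.3 RPM, and did not pass in any comparison. The MYB gene rs2, which represses KNOX genes in leaves, was lower in the center zone (26.9 and 16.3 RPM) than in the leaf libraries (49.5 to 94.2 RPM), with a log2 fold change of -2.19 against abaxial (adjusted p = 0.00823 from edgeR) and -1.86 against adaxial (adjusted p = 0.0122). The ta-siRNA gene lbl1 was higher in the center zone (957.4 and 1051.5 RPM) than in the leaf libraries (245.7 to 352.3 RPM).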
